A study of Mus musculus with 42 samples.

Results

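The genes described here are 10 genes of the vessel wall and of its growth factor signalling: Pecam1, Cdh5 and Vwf, the growth factor Vegfa with its receptors Flt1 and Kdr, and the angiopoietins Angpt1 and Angpt2 with the receptors Tek and Tie1. They were chosen by gene symbol from the 21184 gene symbols that the array carries. The rule did not use their values, but it was set with earlier results of these data known. Total RNA from aorta and skeletal muscle of male mice was hybridized to 42 single-colour Agilent arrays, with 3 arrays for each of 7 groups in each tissue. By the study's methods the mice were aged 18 to 20 weeks, a high-fat diet and L-NAME given for 8 weeks made the macroangiopathy model, and each group was then treated for 8 weeks. The healthy group (G) consisted of C57BL/6 mice, and all the other groups of KK/Ay mice, a strain with obesity and diabetes. The diabetic group (A) received saline. The macroangiopathy group (C) received saline and a high-fat diet, and its drinking water held L-NAME, which blocks nitric oxide synthases. The SHENQI (B), yangyinyiqi (D), huoxue (E) and rosiglitazone (F) groups had the diet and L-NAME of group C and were given their preparation by gavage. SHENQI, yangyinyiqi and huoxue are Chinese medicine preparations, and rosiglitazone is a PPAR gamma agonist. Healthy mice were also given saline. Strain and diabetes cannot be told apart where a KK/Ay group is compared with the healthy group, and diet and L-NAME cannot be told apart between groups C and A. The labels number the 3 samples of a group and do not say whether an aorta and a muscle came from the same mouse, so P values measure the spread between these samples.

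Endothelial cells line every vessel. Pecam1 and Cdh5 (VE-cadherin) join neighbouring endothelial cells, and Vwf is a clotting protein that these cells store and release. Vegfa is induced by low oxygen and acts on endothelial cells mainly through Kdr, whereas Flt1 binds it tightly and, also as a soluble form, holds it away from Kdr. Angpt1, made mostly by cells around the endothelium, activates the receptor Tek (Tie2) and keeps vessels quiescent. Angpt2 is made by endothelial cells themselves and in many settings opposes Angpt1, and Tie1 is a receptor without a high-affinity angiopoietin of its own that modulates Tek. Skeletal muscle is dense in capillaries, whereas in the aorta endothelium is a thin lining on a wall of smooth muscle, with fat and small vessels around it.

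The 10 genes were read by 24 probes of 60 bases, 1 for Tie1 and Angpt2 and up to 5 for Flt1, and 21 of these probes were bright enough to test. The sequences below belong to probes behind several of the differences described: 1 each of Pecam1, Vwf and Tie1 for the tissue contrast, and both probes of Angpt1, whose signal was the dimmest. The Angpt2 probe, the second bright Vwf probe and the Cdh5 probes are not printed. Coordinates are those of mm9 given in the array annotation, and the sequences are written 5′ to 3′ as the array design gives them. The Pecam1 probe lies at chr11:106542389-106544242 on the minus strand, which is 1854 bases of genome for 60 bases of probe, so it crosses a splice junction. The Vwf probe lies at chr6:125635858-125635917 on the plus strand. The Tie1 probe lies at chr4:118144132-118144191 on the minus strand. The Angpt1 probes lie at chr15:42327896-42327955 and at chr15:42258569-42258628, both on the minus strand.
Pecam1 A_51_P400868: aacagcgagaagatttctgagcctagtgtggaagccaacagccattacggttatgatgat
Vwf A_51_P103406: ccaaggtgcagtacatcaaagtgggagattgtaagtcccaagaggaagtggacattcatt
Tie1 A_51_P177171: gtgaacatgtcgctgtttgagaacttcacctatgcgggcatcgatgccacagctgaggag
Angpt1 A_52_P574140: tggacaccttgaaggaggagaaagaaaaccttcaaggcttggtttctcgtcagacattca
Angpt1 A_52_P160328: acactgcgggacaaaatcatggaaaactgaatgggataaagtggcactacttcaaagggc
The G and C content was 45% for the Pecam1, Vwf and both Angpt1 probes and 53.3% for the Tie1 probe. Of the 24 probes, 17 were well above background on all 42 arrays. The exceptions were 1 Kdr probe and 1 Flt1 probe that reached this on 0 arrays, a Vwf probe on 4, a Pecam1 probe on 22, a Flt1 probe on 41, and the Angpt1 probes on 34 and 38. Levels below are log2 fluorescence intensities after background correction and quantile normalization, averaged over all probes of a gene, the dim probes included. A dim probe can thus pull a gene's difference towards 0 or, as for Pecam1 in some muscle comparisons below, away from it. A level of one gene cannot be set against a level of another on this scale.

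The labelled tissues were checked against marker genes. The mean level of 7 skeletal muscle markers was 16.6 to 17 on muscle arrays and 7.78 to 15.7 on aorta arrays. Aorta arrays carried smooth muscle (9.54 to 14.3 over 7 genes), brown fat (13 to 15.8 over 4 genes), white fat (11 to 13.6 over 6 genes) and cardiac markers (6.25 to 12.1 over 5 genes). The brown fat gene Ucp1 lay between 15 and 17.5 on aorta arrays and between 5.29 and 8.93 on muscle arrays. Markers of fat, heart and skeletal muscle were thus present in the aorta samples beside those of the vessel wall, at levels that differed from array to array. Healthy aorta array 1 went against its label for smooth muscle: Myh11, the smooth muscle myosin, was at 9.15 there against an aorta median of 14.8, and Acta2 at 8.99 against 12.6. The same array had the highest macrophage (9.68) and lymphatic endothelial (8.76) means of the aorta arrays, and the lowest values of 5 of the 10 genes, Vwf, Kdr, Tek, Angpt1 and Angpt2. Rosiglitazone aorta array 1, with skeletal markers at 14.7, had the lowest values of Pecam1, Cdh5, Tie1 and Vegfa, and diabetic aorta array 2 had skeletal markers at 15.7. In muscle, healthy array 3 had the lowest values of 7 of the 10 genes and the highest macrophage mean (9.47). The fits between tissues and over both tissues were repeated without the 3 aorta arrays, and those within a tissue without the 3 aorta arrays or without healthy muscle array 3. Values without them stand beside the results they touch.

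**Figure D1:**
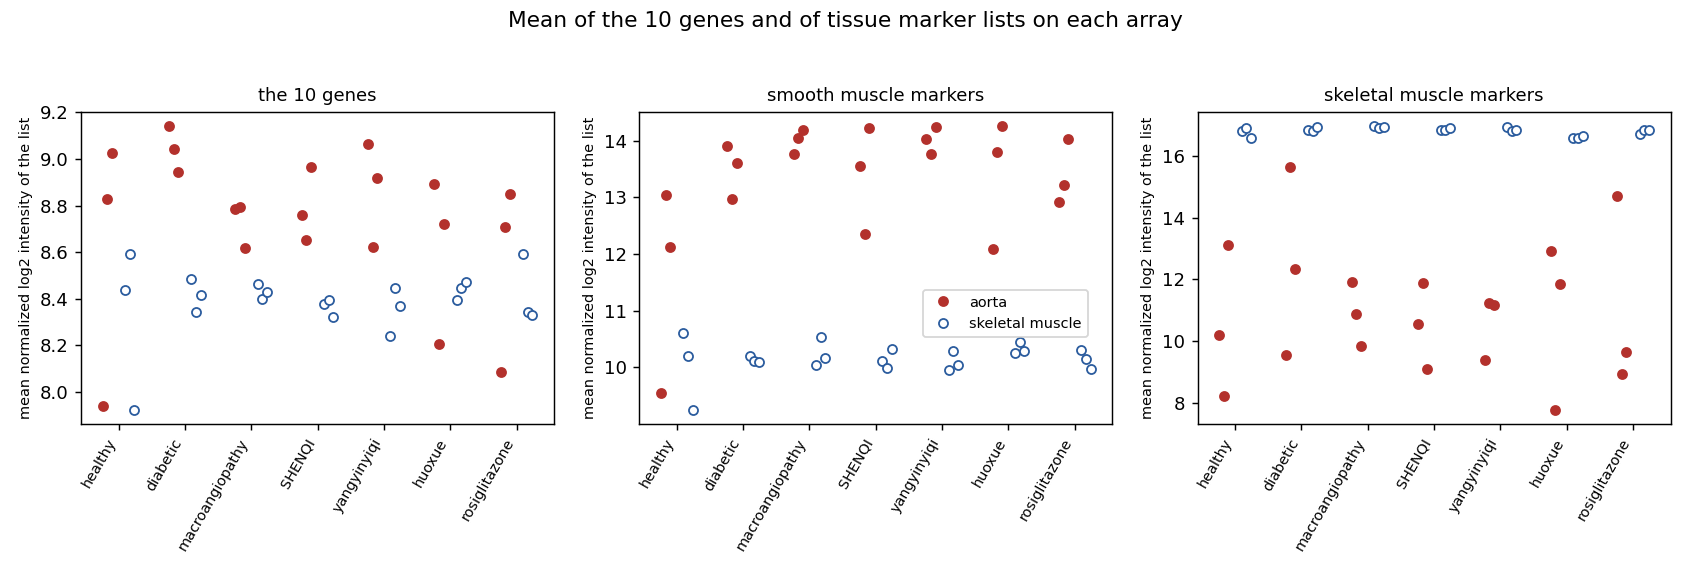
Mean log2 intensity of the 10 genes, of 7 smooth muscle markers and of 7 skeletal muscle markers on each array by group, in aorta (filled points) and skeletal muscle (open points). Healthy aorta array 1 is at 9.54 for smooth muscle, below every other aorta array, and skeletal markers reach 15.7 on a diabetic aorta array.

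Of the 10 genes, 5 were higher in aorta than in skeletal muscle and 2 were lower, in a limma fit over all 42 arrays with a term for group. By the mean over probes Angpt2 and Vwf differed most, by 3.03-fold and 2.85-fold, and Angpt1 ran the other way, 1.55-fold higher in muscle. The Vwf mean includes a dim probe, and each of its bright probes differed by more than the Angpt2 probe. Over all genes tested, 76.4% passed the same adjusted threshold, 40.1% higher and 36.3% lower in aorta, so a call by itself does not set these genes apart. The median difference was 0.25 for the 10 genes and 0.03 for all genes. In bulk tissue, fewer cells of a type and less RNA per cell cannot be told apart.

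Among the genes that mark endothelium, Vwf lay between 8.11 and 11.25 (median 10.19) on the 21 aorta arrays and between 8.26 and 8.98 (median 8.62) on the 21 muscle arrays. On 20 of 21 aorta arrays it exceeded every muscle array, the exception being healthy aorta array 1. Its difference was 1.51 (SE 0.136, 95% interval 1.23 to 1.79, adjusted P 1.67e-12), and its bright probes, which the dim probe did not dilute, differed by 2.17 and 2.07. Pecam1 ranged from 7.66 to 9.05 (median 8.19) in aorta and from 7.23 to 7.88 (median 7.56) in muscle, a difference of 0.69 (SE 0.0845, 95% interval 0.52 to 0.86, adjusted P 2.80e-09). This rested on the junction-crossing probe printed above, which differed by 1.31, while the other Pecam1 probe, dim on 20 arrays, differed by 0.08 (adjusted P 0.399). Cdh5, in contrast, had medians of 8.84 in aorta and 8.68 in muscle with ranges of 8.05 to 9.79 and 7.73 to 9.71, and its difference of 0.15 did not pass (95% interval -0.05 to 0.35, adjusted P 0.175). Its probes split, with A_52_P248604 higher in aorta by 0.31 (adjusted P 0.0293) and A_51_P309056 at -0.02 (adjusted P 0.884), so the mean over probes does not describe both.

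Among the VEGF genes, the aorta arrays were higher for Kdr and lower for Flt1. Kdr lay between 7.10 and 8.45 (median 8.10) in aorta and between 6.85 and 7.96 (median 7.73) in muscle. The difference was 0.34 (SE 0.0882, 95% interval 0.16 to 0.52, adjusted P 0.000733) and 0.60 for its bright probe, but it was -0.27 with the processed signal that the scanner software gives, scaled to each array's 75th percentile, so its direction depends on the scaling. Flt1 lay between 8.04 and 9.15 (median 8.75) in aorta and between 8.52 and 9.39 (median 9.01) in muscle. Its difference of -0.31 (SE 0.0815, 95% interval -0.47 to -0.14, adjusted P 0.00101) came from 2 of its probes, which differed by -0.79 and -0.53, while those at the 3′ end of the gene differed by 0.02 and -0.12 and did not pass. The brightest Flt1 probe alone gave 0.02. The probes that differed lie at chr5:148449781-148449840 and chr5:148465976-148466035 of mm9 and were designed on other transcripts than the 3′ probes. Vegfa ranged from 8.91 to 10.88 (median 9.98) in aorta and from 9.27 to 10.52 (median 10.25) in muscle, and its mean difference of -0.18 did not pass (95% interval -0.48 to 0.12, adjusted P 0.267). Its 4 probes split. Of these, 1 was higher in aorta by 0.53 (adjusted P 0.00465), A_52_P638895 was lower by -0.76 (adjusted P 1.08e-05), A_52_P229471 was lower by -0.63 (adjusted P 8.27e-05), and A_51_P482552 differed by 0.14 (adjusted P 0.470), so that the mean over probes hides opposite differences.

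Within the angiopoietin pathway the ligands differed in opposite directions. Angpt2 lay between 8.76 and 10.64 (median 9.72) in aorta and between 7.79 and 8.59 (median 8.02) in muscle, and all 21 aorta arrays exceeded all 21 muscle arrays. Its difference was 1.60 (SE 0.124, 95% interval 1.35 to 1.85, adjusted P 2.59e-14). Angpt1 lay between 5.51 and 6.39 (median 6.03) in aorta and between 5.94 and 6.96 (median 6.73) in muscle, with a difference of -0.63 (SE 0.0556, 95% interval -0.75 to -0.52, adjusted P 7.65e-13), and its probes gave -0.55 and -0.71. Its dimness in aorta limits this value: the probe A_52_P574140 was well above background on 0 of 3 healthy aorta arrays and A_52_P160328 on 1 of 3. The receptor Tie1 ranged from 8.48 to 10.55 (median 9.83) in aorta and from 8.47 to 9.77 (median 9.11) in muscle, a difference of 0.51 (SE 0.142, 95% interval 0.23 to 0.80, adjusted P 0.00144) with 12 of 21 aorta arrays above every muscle array. Tek had medians of 8.08 in aorta and 8.29 in muscle, and its difference of -0.19 missed the adjusted threshold (95% interval -0.38 to -0.00, adjusted P 0.0641). Of the Tek probes, A_52_P234087 was lower in aorta by -0.41 (adjusted P 0.00217) and A_51_P130374 differed by 0.03 (adjusted P 0.787).

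**Figure D2:**
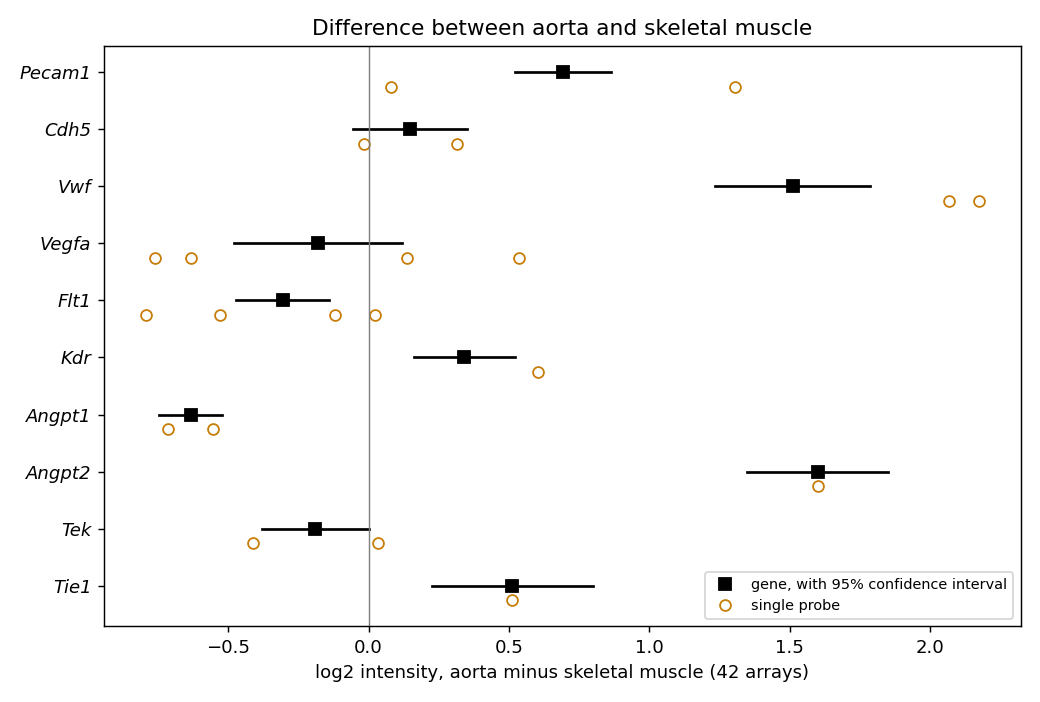
Log2 difference between aorta and skeletal muscle for each of the 10 genes (large points with 95% intervals, limma over 42 arrays) and for each of their probes (small points). Among the large points Angpt2 at 1.60 and Vwf at 1.51 lie furthest to the right and Angpt1 at -0.63 furthest to the left. Single probes of Vwf lie further right and single probes of Flt1 and Vegfa further left. The Vegfa probes lie on both sides of 0.

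Of 71 other genes listed for the same pathways, 45 were higher and 12 lower in aorta, against 40.1% and 36.3% of all genes. The lists were chosen by hand and are not a background. Marker lists of other cell types also leaned to one side. Of these, 6 of 7 smooth muscle and 5 of 6 white fat markers were higher, and 7 of 7 skeletal muscle markers lower. Of 5 lymphatic endothelial markers 1 was higher and 1 lower. All 7 other angiopoietin-Tie pathway genes were higher in aorta. Of 28 other endothelial genes, 20 were higher and 1 lower, the transcription factor Sox17 at -0.22. The adhesion molecule Mcam was higher by 2.29, Icam2 by 1.34, the tight junction gene Cldn5 by 1.09 and the endothelial transcription factor Erg by 1.07. Among 7 other VEGF ligands and receptors, Nrp2 (1.02), Figf (0.69) and the lymphatic growth factor Vegfc (0.57) were higher, and Vegfb (-0.56), the lymphatic receptor Flt4 (-0.41) and Pgf (-0.28) were lower. Of 8 Notch and ephrin genes, 5 were higher, with Hey2 at 1.67. Of 13 hypoxia-induced genes 5 were higher and 7 lower, among them Egln3 at -2.62 and Bnip3 at -1.47, and of 8 pericyte genes 5 were higher and 1 lower. With slide as a random block the same 7 of the 10 genes were called, and 8 were called without healthy aorta array 1, diabetic aorta array 2 and rosiglitazone aorta array 1. On the 6 healthy arrays alone 0 of the 10 passed, although the 7 differences kept their direction. That fit had few arrays, healthy aorta array 1 among them, so it does not show that the tissues were alike in healthy mice. The shares of all genes passing in these alternative fits are not given here.

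Across the 7 groups, 0 of the 10 genes varied in aorta and 3 varied in skeletal muscle in a limma F test within each tissue, against 1.32% and 36.2% of all genes tested. In aorta Vwf had the lowest P (0.0672, adjusted P 0.50). The 3 genes in muscle were Cdh5, Angpt1 and Flt1, a share close to that of all genes. Without healthy muscle array 3 these passed again (adjusted P 5.24e-05, 0.0154 and 0.00645), and Pecam1 passed with them (adjusted P 0.0261). On all muscle arrays Pecam1 had an adjusted P of 0.225 in the same F test. The array left out held the lowest Pecam1 value in muscle and was chosen after seeing the data, so this added call is no separate support. The share of all genes passing without it is not given here.

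Cdh5 in muscle was highest in healthy mice, at 9.47, 9.71 and 8.74, and lowest in the huoxue group, at 8.26, 7.73 and 8.14. The rosiglitazone arrays followed at 8.49, 8.38 and 8.51. The other groups lay between, and only macroangiopathy and SHENQI among them did not overlap, with 9.09, 8.64 and 8.89 in diabetic, 8.97, 8.83 and 8.88 in macroangiopathy, 8.67, 8.68 and 8.77 in SHENQI and 8.51, 8.98 and 8.67 in yangyinyiqi muscle. All 3 huoxue arrays lay below the 18 other muscle arrays. The adjusted P over the groups was 0.00247, and 0.0136 with slide as a random block. The variation was mostly in the probe A_52_P248604, at chr8:106668159-106668218 of mm9, the one of its pair nearer to the 3′ end of the gene. It read 8.75, 7.80 and 8.73 in huoxue muscle, 9.03, 9.20 and 9.27 in rosiglitazone muscle and 10.04, 9.91 and 9.74 in macroangiopathy muscle.

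Angpt1 in muscle was lowest in healthy mice, at 6.50, 6.20 and 5.94, and highest in diabetic mice, at 6.80, 6.87 and 6.95, groups that did not overlap. Its values were 6.84, 6.73 and 6.76 in the macroangiopathy, 6.92, 6.74 and 6.65 in the SHENQI, 6.69, 6.88 and 6.96 in the yangyinyiqi, 6.61, 6.57 and 6.74 in the huoxue and 6.65, 6.61 and 6.28 in the rosiglitazone group. Apart from the rosiglitazone array at 6.28, every KK/Ay array lay above every healthy array. The adjusted P was 0.00614, but 0.109 with slide as a random block.

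Flt1 in muscle ran from 8.80, 8.52 and 8.67 in diabetic mice to 9.05, 9.33 and 9.39 in the huoxue group. Healthy mice were at 9.03, 9.12 and 9.13 and rosiglitazone mice at 9.34, 9.09 and 9.10. Values were 8.88, 8.88 and 8.98 in the macroangiopathy, 9.01, 8.83 and 8.81 in the SHENQI and 8.73, 9.10 and 8.80 in the yangyinyiqi group. The 3 highest groups overlapped, and the diabetic arrays lay below all arrays of those 3. The adjusted P was 0.00663, but 0.139 with slide as a random block.

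Slide and group moved together in these muscle results, and the groups compared shared a slide only for A vs G in aorta, B vs C in muscle and D vs C in both tissues. Between the other pairs group and slide cannot be told apart within a tissue. All 3 huoxue muscle arrays and 1 rosiglitazone array were on the slide with the fewest spots above background (21557 to 22990 per array, against 23717 to 28510 on the other muscle arrays), so for huoxue muscle group and slide cannot be told apart. On that slide the rosiglitazone array exceeded the mean of the huoxue arrays by 0.45 for Cdh5. On the slide that held both healthy and rosiglitazone muscle arrays, 2 of each, rosiglitazone was lower than healthy by -1.15 for Cdh5.

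**Figure D3:**
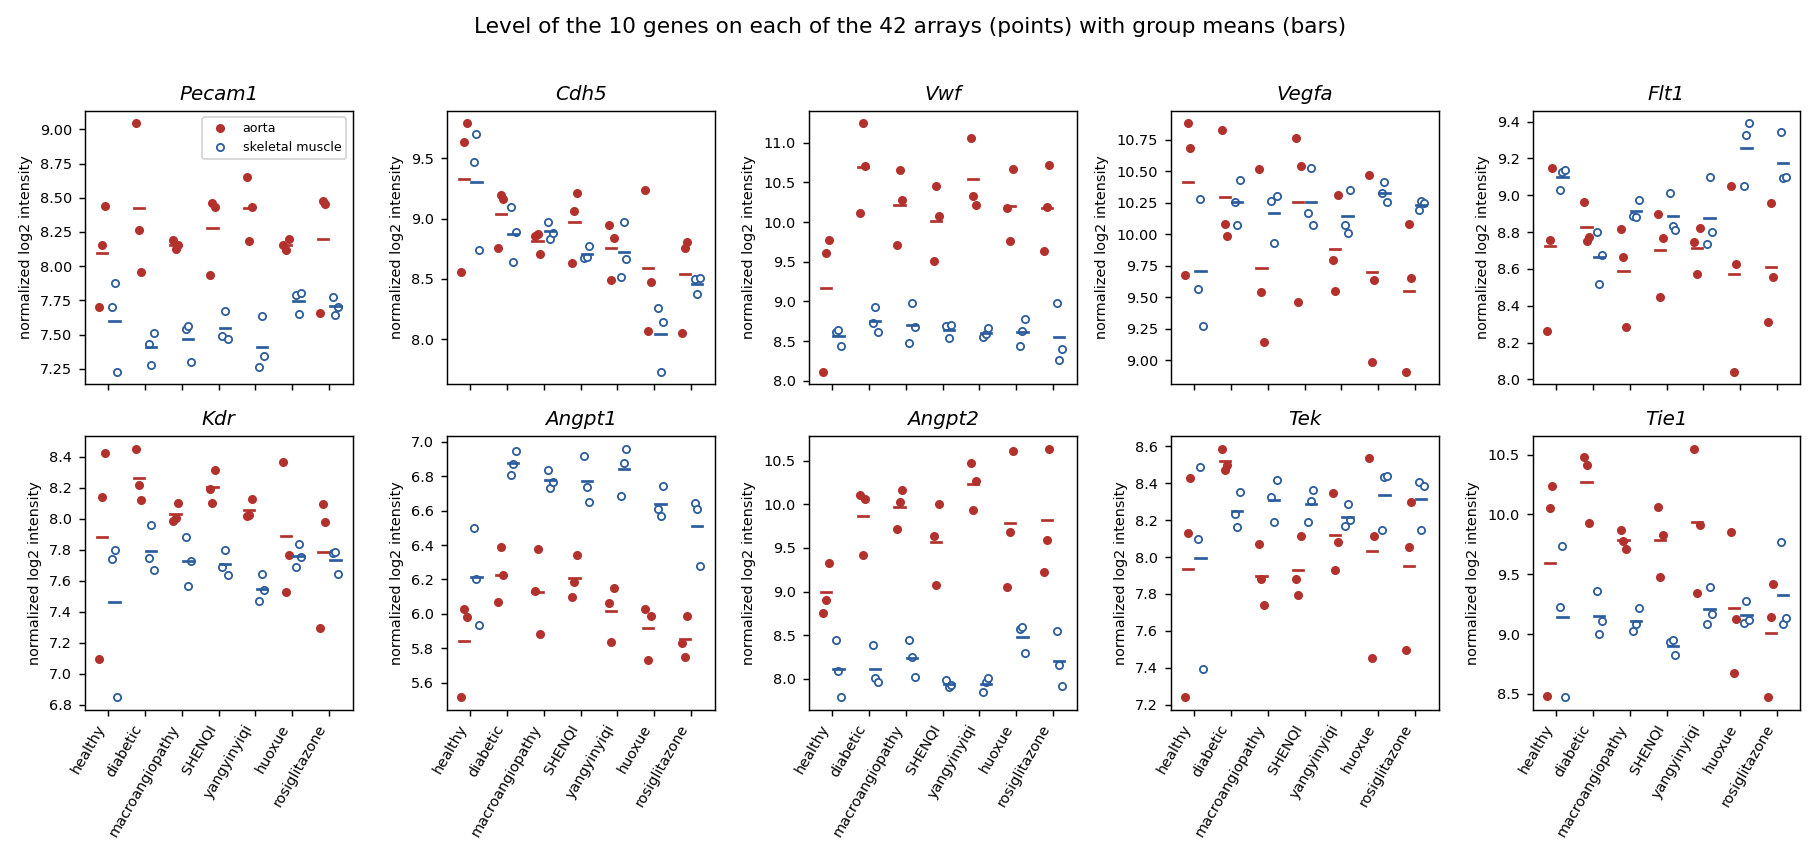
Log2 intensity of each of the 10 genes on each array, by group, with aorta and skeletal muscle in different colours and each point 1 array. Angpt2 separates the tissues in every group, and Cdh5 in muscle is lowest in the huoxue group, between 7.73 and 8.26.

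**Figure D4:**
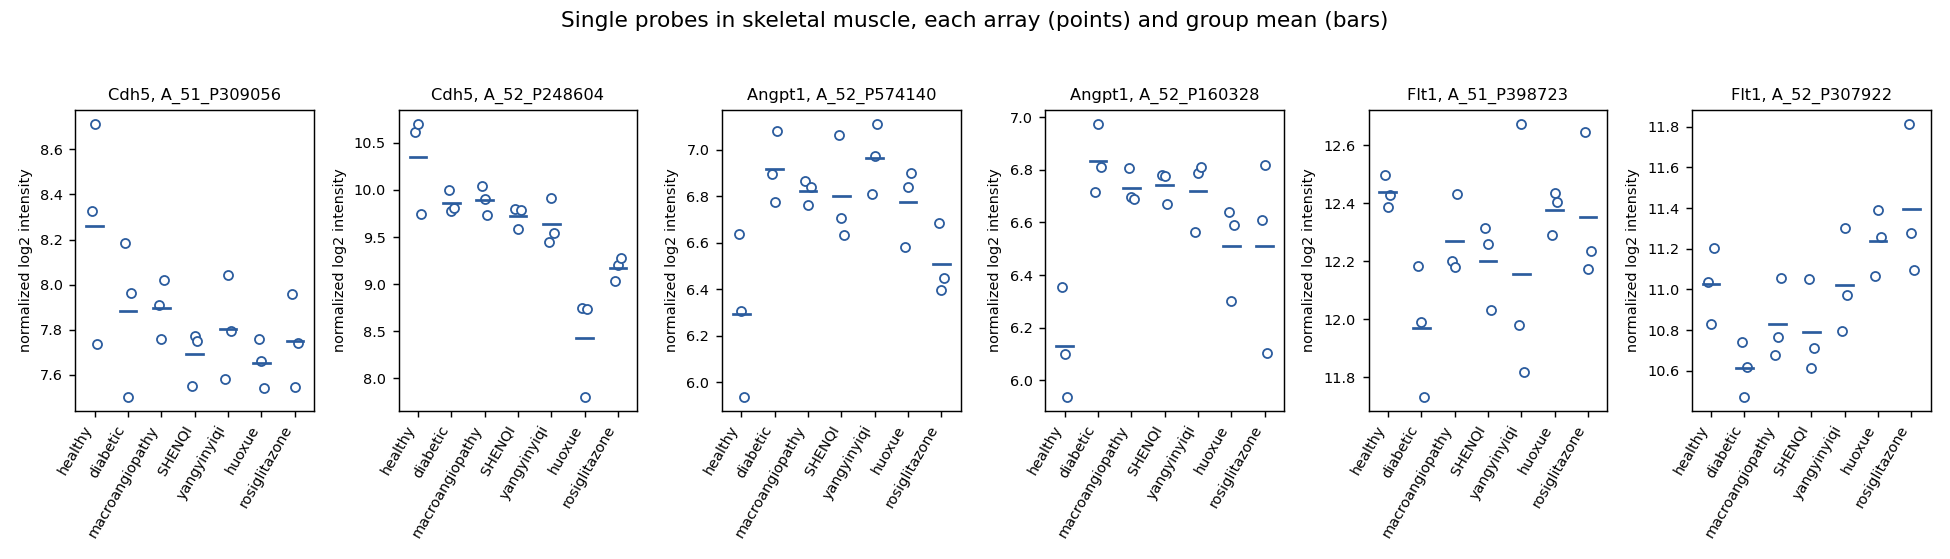
Log2 intensity in skeletal muscle of 6 single probes of Cdh5, Angpt1 and Flt1 by group, with each point 1 array and bars at group means. The Cdh5 probe A_52_P248604 reads 7.80 to 8.75 in the huoxue group and 9.74 to 10.04 in the macroangiopathy group.

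Diabetic mice compared with healthy mice had more Angpt1 and more Vwf signal at the unadjusted P of 0.05 that the study's methods use, and 0 of the 10 genes passed after adjustment. Angpt1 was higher by 0.52 (SE 0.137, 95% interval 0.23 to 0.82, P 0.0024, adjusted P 0.052), with 0.38 in aorta and 0.66 in muscle. The aorta part is read from a dim signal. Vwf was higher by 0.86 (SE 0.33, 95% interval 0.14 to 1.59, P 0.0239, adjusted P 0.163). In aorta it was at 10.12, 11.25 and 10.71 in diabetic mice and at 8.11, 9.61 and 9.77 in healthy mice, and the groups did not overlap. Smooth muscle markers lay between 9.54 and 13.03 in healthy and between 12.97 and 13.90 in diabetic aorta, and red cell markers between 10.79 and 11.94 and between 12.01 and 13.12, and their part in the Vwf difference was not tested. Of all genes 22.1% passed the unadjusted and 4.5% the adjusted threshold, so 2 of 10 is near the background.

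Single arrays carried part of the Vwf difference: it was 0.55 (P 0.0244) without healthy aorta array 1, 0.66 (P 0.0586) without diabetic aorta array 2 and 0.78 (P 0.0525) without diabetic aorta array 3. Without the 3 aorta arrays whose markers stood apart it was 0.41 (P 0.0282) over both tissues, and within aorta it went from 1.53 (P 0.0214) to 0.73 (P 0.0461). With a single fit over all 42 arrays the adjusted P was 0.0107 for Vwf and 0.000534 for Angpt1, and with scan day as a block Angpt1 fell to 0.30 (P 0.109). Within the slide that held 1 diabetic and 2 healthy aorta arrays, Vwf was higher by 1.18, Angpt2 by 1.06 and Tie1 by 1.12 in the diabetic array. One of those healthy arrays is healthy aorta array 1, and against healthy array 3 alone the differences were 0.35, 0.77 and 0.24.

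Angpt2 was higher in diabetic aorta, at 10.10, 9.42 and 10.06 against 8.76, 8.90 and 9.33 in healthy aorta, without overlap (0.87, P 0.0156, and 0.97, P 0.00988, without the arrays that stood apart), whereas in muscle it differed by 0.01. Angpt1, Vwf and Tek did not overlap in aorta either, with the diabetic arrays higher. Here and in the other comparisons, the share of all genes whose arrays did not overlap was not computed. A lack of overlap between 3 and 3 arrays therefore does not set these genes apart. In muscle the Flt1 arrays of the diabetic group all lay below the healthy ones (-0.43, P 0.013), and those of Angpt1 all above (0.66, P 0.00599). Without healthy muscle array 3 these were -0.41 (P 0.0181) and 0.53 (P 0.00777), and Cdh5 (-0.71, P 0.00591) and Pecam1 (-0.38, P 0.0251) were lower in diabetic muscle. Without the 3 aorta arrays Cdh5 was lower in diabetic aorta as well (-0.75, P 0.0271). On all arrays these Cdh5 and Pecam1 differences did not pass. In muscle they were -0.43 (P 0.152) and -0.20 (P 0.344), and in aorta Cdh5 differed by -0.29 (P 0.450). The arrays were left out after seeing the data, and the healthy ones among them had the lowest healthy values of these genes. In aorta alone 2 of the 10 genes passed the unadjusted threshold, against 11.7% of all genes, and in muscle alone 2, against 22.2%. Over both tissues the other pathway genes gave 19 of 71 higher and 4 lower at the unadjusted threshold. After adjustment 4 remained: Vegfc (1.21, adjusted P 0.000596), the potassium channel subunit Abcc9 (1.82, adjusted P 0.00244), the endothelial transcription factor Sox7 (1.04, adjusted P 0.0264) and, lower, the oxygen sensor Egln3 (-1.23, adjusted P 0.0348). Abcc9 was on the pericyte list but was lower in aorta than in skeletal muscle (-0.58), and its change cannot be assigned to pericytes in bulk tissue.

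The macroangiopathy group compared with the diabetic group, which shares its strain, had lower Tek and Tie1 in aorta. Tek was at 8.07, 7.88 and 7.74 in macroangiopathy aorta and at 8.59, 8.47 and 8.50 in diabetic aorta, a difference of -0.62 (P 0.0025), and in muscle it differed by 0.06. Tie1 was at 9.87, 9.78 and 9.71 against 10.48, 10.41 and 9.93 in aorta (-0.49, P 0.0282) and differed by -0.04 in muscle. Aortic Kdr arrays did not overlap either, with 7.99, 8.01 and 8.10 against 8.45, 8.22 and 8.12. Over both tissues the differences were -0.28 for Tek (SE 0.12, 95% interval -0.55 to -0.01, P 0.0443, adjusted P 0.965) and -0.27 for Tie1 (P 0.0483). Each call was lost when any of 8 of the 12 arrays was left out in turn, with slide as a random block (P 0.0606 and 0.0769) and with scan day as a block (P 0.096 and 0.107). The groups shared no slide in either tissue, so group and slide cannot be told apart. Within aorta and without the 3 arrays, of which diabetic array 2 is one, Tek was at -0.65 (P 0.0078) and Tie1 at -0.42 (P 0.0875). In aorta 9 of the 10 genes were lower, with a median of -0.25 against 0.01 for all genes. The share of all genes that were lower is not given here. The 10 genes varied together in aorta, so these are not 9 separate results. In muscle Flt1 was higher (0.25, P 0.0278). After adjustment 0 of the 10 passed in aorta alone or in muscle alone. The background was 5.11% of all genes unadjusted, 0% adjusted, 3.8% in aorta alone and 7.23% in muscle alone, against 2 of the 10 genes over both tissues, 0 adjusted, 2 in aorta and 1 in muscle. Skeletal markers ranged from 9.86 to 11.9 in macroangiopathy and from 9.54 to 15.7 in diabetic aorta, and the part of this difference in the result was not tested. Of the 71 other pathway genes 3 were higher and 9 lower at the unadjusted threshold, and 0 passed after adjustment. Those with the lowest P were Ddit4 (0.57), Anpep (-0.32), the thrombin receptor Thbd (-0.32) and the glycolytic regulator Pfkfb3 (-0.75).

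The macroangiopathy group compared with the healthy group had higher angiopoietins. Angpt1 was higher by 0.43 (SE 0.14, 95% interval 0.12 to 0.73, P 0.0107, adjusted P 0.0975) and Angpt2 by 0.55 (SE 0.19, 95% interval 0.13 to 0.97, P 0.0151, adjusted P 0.114). Angpt2 differed in aorta, where it was at 9.72, 10.03 and 10.16 in macroangiopathy mice, above every healthy array (0.97, P 0.00372), and by 0.13 in muscle. Angpt1 differed in muscle, without overlap (0.56, P 0.012). Without the arrays that stood apart the first was 0.85 (P 0.0082) and the second 0.43 (P 0.0162). Cdh5 was then lower in macroangiopathy mice in aorta (-0.90, P 0.000875) and in muscle (-0.69, P 0.00137), and in aorta so were Tie1 (-0.36, P 0.042) and Vegfa (-1.05, P 0.0482). On all arrays none of these passed. Cdh5 was at -0.51 (P 0.181) in aorta and -0.41 (P 0.145) in muscle. Tie1 was at 0.19 (P 0.694) and Vegfa at -0.68 (P 0.190) in aorta. These calls arose only once the healthy arrays with the lowest values of these genes were left out, a choice made after seeing the data. With scan day as a block Angpt1 differed by 0.10 (P 0.69), and by 0.26 (P 0.127) with its brightest probe alone. Groups A and C share the healthy arrays in these comparisons. The background was 24.3% unadjusted and 5.17% adjusted, 18.5% in aorta and 21.9% in muscle, so 2, 0, 1 and 1 of the 10 genes lay at or below it. Leaving out healthy aorta array 1 raised the counts in the comparisons of groups A and C with the healthy group to 4 each. The share of all genes passing without that array is not given here, so the rise need not be particular to the 10 genes. Of the other 71 genes 18 were higher and 5 lower at the unadjusted threshold. Those that passed after adjustment were Vegfc (1.11, adjusted P 0.00314), Abcc9 (1.78, adjusted P 0.00318), Egln3 (-1.47, adjusted P 0.0101), the endothelial lectin gene Clec14a (0.66, adjusted P 0.0254) and Grb14 (1.07, adjusted P 0.0266).

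SHENQI mice compared with macroangiopathy mice had less Angpt2 signal, by -0.34 (SE 0.15, 95% interval -0.66 to -0.03, P 0.0366, adjusted P 1.0), the 1 gene of the 10 that passed the unadjusted threshold, against 2.71% of all genes. In muscle Angpt2 was at 7.99, 7.91 and 7.93 against 8.44, 8.25 and 8.02, without overlap (-0.29, P 0.0361), and in aorta at 9.63, 9.08 and 10.01 against 9.72, 10.03 and 10.16. Cdh5 (-0.19, P 0.0436) and Tie1 (-0.21, P 0.0436) in muscle were also lower without overlap, and all 3 Kdr values in aorta lay above those of group C, by a margin that 2 decimals do not show. In muscle alone 3 of the 10 genes passed, against 2.94% of all genes, and in aorta 0, against 1.61%. On the slide that held muscle arrays of both groups, 2 of each, SHENQI was lower by -0.43 for Angpt2 and by -0.18 for Cdh5. The Angpt2 call was lost when any of 7 of the 12 arrays was left out, and after adjustment 0 of the 10 and 0% of all genes passed. Of the other pathway genes 3 were higher and 4 lower, those with the lowest P being Pfkfb3 (0.54), Cldn5 (-0.35), Angpt4 (-0.31) and the sheddase Adam17 (0.19).

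Yangyinyiqi mice compared with macroangiopathy mice differed in 0 of the 10 genes, against 3.4% of all genes unadjusted and 0% adjusted. The lowest P was that of Cdh5, with a difference of -0.12 (95% interval -0.33 to 0.10, P 0.257). In muscle alone Angpt2 was lower (-0.29, P 0.0361), at 7.85, 7.97 and 8.01 against 8.44, 8.25 and 8.02, and was the 1 gene of 10 that passed, against 3.82% of all genes. In aorta 0 passed, against 1.4%. Within single slides Angpt2 differed by -0.07 in muscle, with 3 yangyinyiqi arrays against 1 macroangiopathy array. In aorta it differed by 0.51, with 1 yangyinyiqi array against 3 macroangiopathy arrays. Of the other pathway genes 4 were higher and 3 lower, with Cldn5 (-0.47), the tip cell gene Esm1 (-0.47), the arterial ligand Efnb2 (-0.22) and Foxo1 (0.18) having the lowest P. SHENQI and yangyinyiqi were each compared with the same macroangiopathy arrays.

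Huoxue mice compared with macroangiopathy mice had less Cdh5 signal, by -0.54 (SE 0.19, 95% interval -0.96 to -0.12, P 0.0168, adjusted P 0.256). In muscle alone the difference was -0.85 (SE 0.14, adjusted P 0.00441), and in aorta alone -0.22 (P 0.491). For the gene, the aorta minus muscle contrast of 0.63 did not pass (SE 0.35, interaction P 0.0999, adjusted P 0.391). The muscle arrays were at 8.26, 7.73 and 8.14 against 8.97, 8.83 and 8.88. The probe A_52_P248604 differed by -1.47 in muscle and -0.06 in aorta, and this contrast between tissues had P 0.00697 and adjusted P 0.0831. The other Cdh5 probe, A_51_P309056, differed by -0.24 in muscle and -0.38 in aorta (P 0.706 for the contrast), so the tissue contrast is that of 1 probe. In muscle alone Flt1 was higher (0.34, adjusted P 0.0394), as was Pecam1 at the unadjusted threshold (0.28, P 0.0218). The Pecam1 value came mostly from its dim probe A_52_P349070 (0.41), which was well above background on 0 of 3 huoxue and 0 of 3 macroangiopathy muscle arrays, and its bright probe A_51_P400868 differed by 0.15. These 3 of 10 unadjusted and 2 of 10 adjusted calls in muscle stand against 45.5% and 32.2% of all genes, and are thus fewer than the background. In aorta 0 of the 10 passed, against 2.08%. Over both tissues 1 passed, against 14.3% of all genes, and 0 after adjustment, against 0%. The groups shared no slide in either tissue. Without slides 1, 3 and 11, which leaves no huoxue muscle array, Cdh5 differed by -0.22 (P 0.417). Of the other pathway genes 6 were higher and 5 lower, with Esam (-0.72), Efnb2 (-0.69), Cldn5 (-0.46) and Pdgfb (-0.39) having the lowest P.

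Rosiglitazone mice compared with macroangiopathy mice had less Cdh5 and less Angpt1 signal. Cdh5 was lower by -0.36 (SE 0.12, 95% interval -0.62 to -0.09, P 0.0123, adjusted P 0.28), with -0.27 in aorta and -0.44 (SE 0.08, adjusted P 0.0235) in muscle, where the arrays were at 8.49, 8.38 and 8.51 against 8.97, 8.83 and 8.88. By probe, A_52_P248604 differed by -0.72 in muscle and -0.08 in aorta, and A_51_P309056 by -0.15 and -0.47. Angpt1 was lower by -0.27 (SE 0.10, P 0.0175, adjusted P 0.309). In muscle alone 4 of the 10 genes passed, Cdh5, Angpt1 (-0.27, P 0.0498), and, higher, Flt1 (0.26, P 0.0262) and Pecam1 (0.24, P 0.0446), each without overlap, against 29.7% of all genes, and 1 after adjustment, against 9.86%. For Pecam1 the dim probe A_52_P349070, well above background on 1 of 3 rosiglitazone and 0 of 3 macroangiopathy arrays, differed by 0.38 and the bright probe A_51_P400868 by 0.10. In aorta Tie1 was lower, at 8.48, 9.14 and 9.42 against 9.87, 9.78 and 9.71 (-0.77, P 0.0203, and -0.51, P 0.0108, without rosiglitazone array 1). It was the 1 gene of 10 that passed there, against 7.11%. Skeletal markers ranged from 8.93 to 14.69 in rosiglitazone aorta, highest on the array with the lowest Tie1, and their part in this difference was not tested. Without that array Pecam1 was higher in rosiglitazone aorta (0.31, P 0.0201). On all arrays Pecam1 differed there by 0.04 (P 0.865), and the array left out had the lowest Pecam1 value in aorta. The groups shared no slide in either tissue, so group and slide cannot be told apart, and with scan day as a block Angpt1 differed by -0.23 (P 0.074). Over both tissues 2 of 10 passed unadjusted, against 12% of all genes, and 0 adjusted, against 0.00631%. Without slides 1, 3 and 11, which leaves no rosiglitazone muscle array, the Cdh5 difference was -0.27 (P 0.186). Of the other pathway genes 2 were higher and 9 lower, with Esam (-0.73), Esm1 (-0.67), Efnb2 (-0.56) and the apelin receptor Aplnr (-0.48) having the lowest P. Huoxue and rosiglitazone share the macroangiopathy arrays, and a slide of muscle arrays as well.

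**Figure D5:**
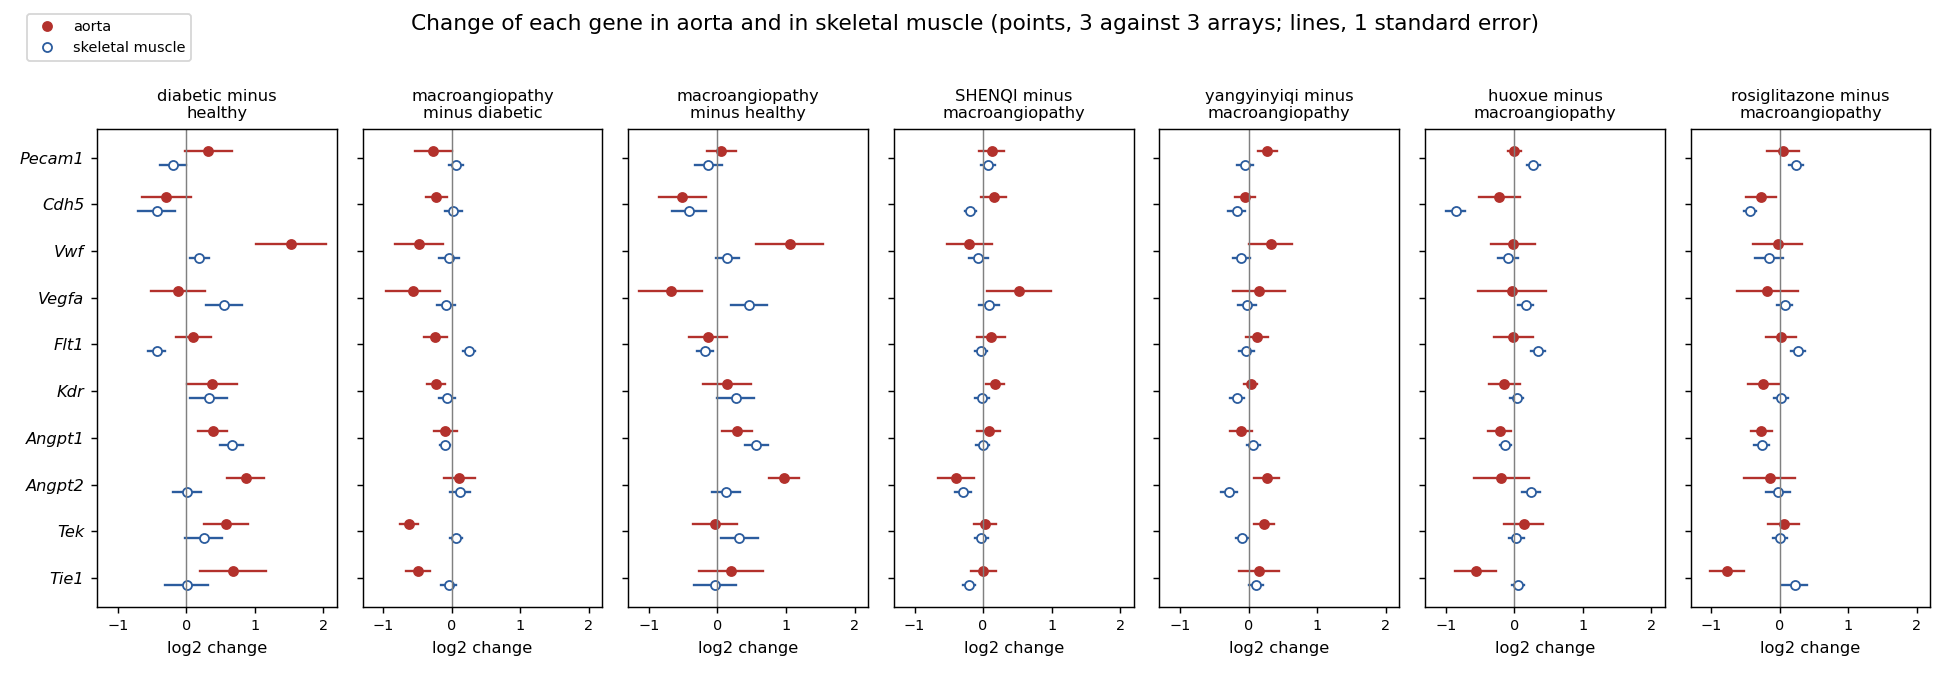
Log2 change of the 10 genes in the 7 group comparisons, with aorta and skeletal muscle each fitted alone on 3 against 3 arrays and lines of 1 standard error. The largest muscle change of group E against C is that of Cdh5 at -0.85, and in A against G the aorta change of Vwf is 1.53.

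Over both tissues Pecam1, Vegfa, Flt1 and Kdr passed the unadjusted threshold in 0 of the 7 comparisons. Vegfa spread widely within groups in aorta, at 9.68, 10.88 and 10.68 in healthy, 10.83, 10.08 and 9.98 in diabetic and 10.51, 9.54 and 9.14 in macroangiopathy mice. In muscle it was at 9.56, 10.28 and 9.27 in healthy mice and at 10.26, 9.93 and 10.30 in macroangiopathy mice, and the groups overlapped in both tissues.

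The change in aorta minus the change in muscle was also tested for each comparison. Unadjusted, 2 of the 10 genes passed in A vs G (background 7.13%), 2 in C vs A (4.38%) and 1 in C vs G (12.4%). Against group C, 0 passed in SHENQI (1.92%), 1 in yangyinyiqi (1.84%), 0 in huoxue (17.5%) and 1 in rosiglitazone mice (16.6%). After adjustment 0 of 10 passed in each, with backgrounds of 0.0743%, 0%, 0.108%, 0%, 0%, 3.05% and 1.51% in the same order, and the lowest adjusted P was 0.168, for Tie1 in rosiglitazone mice. The clearest by unadjusted P was Tek in the macroangiopathy group against the diabetic group, whose change in aorta was lower than that in muscle by -0.68 (SE 0.157, P 0.00118, adjusted P 0.599).

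The 10 genes varied together more in aorta than in muscle. Over the 21 arrays of a tissue, the median of the 45 pairwise Pearson correlations was 0.59 in aorta, with 25 pairs over 0.5, and 0.27 in muscle, with 10 such pairs. Without the 3 aorta arrays and healthy muscle array 3 the medians were 0.31 (18 arrays, 16 pairs over 0.5) and 0.08 (20 arrays, 2 pairs). The difference between the tissues was not tested, and arrays of a tissue share slides, groups and the tissue around the vessel. The same medians are not given for pairs of other genes, so the difference need not be particular to these 10. In aorta the closest pairs were Flt1 with Vegfa (0.85), Kdr with Tie1 (0.84) and Kdr with Tek (0.80), and in muscle Kdr with Tek (0.79). On the mean of the 10 genes, the aorta arrays ranged from 7.94 to 9.14 and the muscle arrays from 7.92 to 8.59.

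Over the 42 arrays, with each array centred on the mean of its tissue, the genes whose levels followed each of the 10 most closely were looked up among 11289 genes, up to 3 of which are named for each. Kdr and Tek shared Hspa12b (0.87 and 0.86) and Arhgef15 (0.86 and 0.90), with Cd300lg (0.85) next for Kdr and Podxl (0.84) for Tek. Tie1 was followed by Ushbp1 (0.90), Card10 (0.88) and Eng (0.88), and Flt1 by Plxna2 (0.85), Notch4 (0.84) and Ppara (0.80). Vwf was followed by Igf2 (0.86), Mmrn2 (0.84) and Entpd2 (0.83). Within a tissue these Vwf pairs were closer in aorta (0.92, 0.88 and 0.89) than in muscle (0.23, 0.59 and 0.50). Pecam1 was followed less closely by Slc4a1 (0.74), Acvrl1 (0.73) and Cfhr2 (0.70). Cdh5 stood with Cdc42ep1 (0.90), Ndufb2 (0.80) and Serpinh1 (0.79), none of which was among the closest 3 of another of the 10. Vegfa was followed by Hadhb (0.93) and Dlst (0.93), which encode mitochondrial enzymes, and by Lace1 (0.93). Angpt2 was followed by Cnn3 (0.88) and Gucy1b3 (0.87), pairs that were also closer in aorta (0.93 and 0.92) than in muscle (0.63 and 0.55). Angpt1 was followed by Tmed1 (0.82), Pstk (0.79) and Tab1 (0.77). These correlations describe the arrays, which share tissue composition, slide and group.

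Promoter sequences in RefSeq (GRCm38.p6) were at hand for 5 of the 10 genes, 6 promoters in all. Those of Flt1, Tek and Tie1 and 1 of the Vegfa promoters held 2 copies of the motif described next, and that of Kdr and the other Vegfa promoter 0. The 250 bases before the start are printed for the 2 that lie outside the annotated gene, those of Tie1 (chr4:118489850-118490099, minus strand) and Vegfa (chr17:46032378-46032627, minus strand). Capitals mark TTCCT, which read on the other strand is AGGAA. It contains GGAA, the core bound by ETS factors that many endothelial promoters use. Other copies of GGAA or of its reverse TTCC in these sequences are not marked, so the capitals do not count all ETS cores.
Tie1: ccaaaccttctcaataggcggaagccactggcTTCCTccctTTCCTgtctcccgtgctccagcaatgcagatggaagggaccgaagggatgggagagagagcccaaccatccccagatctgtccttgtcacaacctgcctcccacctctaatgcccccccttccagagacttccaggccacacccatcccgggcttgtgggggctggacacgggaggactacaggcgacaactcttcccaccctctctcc
Vegfa: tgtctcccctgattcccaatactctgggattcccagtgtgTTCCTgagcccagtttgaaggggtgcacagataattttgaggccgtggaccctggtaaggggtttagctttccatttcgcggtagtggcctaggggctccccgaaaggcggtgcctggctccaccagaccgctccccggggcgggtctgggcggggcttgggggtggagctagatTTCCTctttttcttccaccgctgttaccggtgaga
Of all 32851 promoters in the table, 60.3% hold at least 1 copy on either strand, so the match does not set these genes apart.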

How the data were processed

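Aorta and skeletal muscle RNA was measured on 42 single-colour Agilent arrays. The deposited scanner files, made by the authors with Feature Extraction 10.7.3.1, hold the intensity of each spot and of its local background, and the authors' deposited table of normalized log2 values served as an alternative only. The gene symbols and mm9 positions are those of the array annotation. The study's methods name background correction, quantile normalization and linear models in limma. Normexp (offset 0) on median intensities and normalization over all 42 arrays were chosen here, with limma 3.58.1 in R 4.3.3. Irregular spots (0.0188%) were masked, and spots of a probe and then probes of a symbol were averaged. A gene was tested where all 3 arrays of some set in the comparison had a probe of it well above background. Each comparison used 12 arrays with a term for tissue, two-sided, with Benjamini-Hochberg adjustment over all genes tested. The number of arrays limits the precision. The fit was tested on simulated data.

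The 10 genes, the pathway and marker lists and the rule for names were chosen with earlier results of these data known. The rule names all 10 genes, other pathway genes called after adjustment or, where none was, up to 4 per comparison with the lowest unadjusted P, and 3 genes of highest correlation for each of the 10, of which 1 is not reported here. Alternatives changed the background correction, normalization, filter, summary of probes, slide, replicate and arrays. Blocking on scan day, fitting each probe on its own, leaving out slides 1, 3 and 11 and leaving out 3 aorta arrays with marker lists that stood apart (within muscle, 1 healthy array) were chosen after seeing the data.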

Additional observations from a re-analysis of the deposited data

Results flagged for a closer look

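The change in aorta differed from that in skeletal muscle, by an interaction term at unadjusted P below 0.05, in 7 cases, and in 0 of them after adjustment. In diabetic against healthy mice the aorta minus muscle difference was 1.338 for Vwf (P 0.0376, adjusted P 0.672). It was 0.813 (P 0.0502) without healthy aorta array 1, and 0.535 (P 0.094) without that array, diabetic aorta array 2 and rosiglitazone aorta array 1. Angpt2 differed by 0.857 in the same comparison (P 0.0335, adjusted P 0.656) and by 0.957 (P 0.0175) without these 3 arrays. In macroangiopathy against healthy mice Angpt2 differed by 0.845 (P 0.0197, adjusted P 0.315) and by 0.725 (P 0.0423) without the 3 arrays, and the healthy arrays are the same ones.

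In macroangiopathy against diabetic mice Tek differed by -0.684 (P 0.00118, adjusted P 0.599), with every array left out in turn giving a value between -0.771 and -0.605. Flt1 differed by -0.493 (P 0.0295, adjusted P 0.969). Angpt2 in yangyinyiqi against macroangiopathy mice differed by 0.553 (P 0.0356, adjusted P 1.0). Tie1 in rosiglitazone against macroangiopathy mice differed by -0.99 (P 0.0132, adjusted P 0.168) and by -0.723 (P 0.0188) without rosiglitazone aorta array 1, whose skeletal markers were the highest of its group.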

How the results depend on the processing

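The 7 tissue differences kept their direction under every alternative run, except Kdr, at -0.273 with the scanner software's processed signal at a common 75th percentile, and Flt1, at 0.023 with the brightest probe of a gene. With healthy mice only, 0 of the 10 genes passed between tissues, in a fit of 3 against 3 arrays that includes healthy aorta array 1. Counts of genes passing at unadjusted P below 0.05 in the group comparisons were small and moved easily. They were 2 in A vs G, 2 in C vs A, 2 in C vs G, and, against group C, 1 in SHENQI (B), 0 in yangyinyiqi (D), 1 in huoxue (E) and 2 in rosiglitazone (F) mice, and 0 in each after adjustment. The cause of each change was not tested. The share of all genes passing under each alternative is not given here, so a changed count need not be particular to the 10 genes.

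The count in A vs G was 1 with a stricter filter, 4 with slide as a random block, 4 without slides 1, 3 and 11, 4 with all 42 arrays and 14 means, 4 without the 3 aorta arrays whose markers stood apart, and 5 with slides 1, 3 and 11 as a batch term. After adjustment it was 2 with all 42 arrays, and 1 with the batch term, with local background subtracted, with the processed signal and with the authors' table. C vs A gave 0 with slide as a random block, without slides 1, 3 and 11, with all 42 arrays, with the batch term, without the 3 aorta arrays, with the processed signal and with scan day as a block, and 1 with local background subtracted, the brightest probe, the authors' table, no filter and muscle alone, where Tek was at 0.062. With the replicate number as a paired term (replicate block) C vs A gave 0, and this changed no other count by over 1.5 times. The numbers did not pair the samples: of 42 same-numbered pairs between groups 10 had deviations correlated over 0.1, and of 21 aorta and muscle pairs 3. C vs G gave 1 with a stricter filter, with scan day as a block, with muscle alone and with aorta alone, 4 with all 42 arrays and without the 3 aorta arrays, and after adjustment 1 with all 42 arrays and 1 with the batch term.

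B vs C gave 0 with all 42 arrays, the batch term, the processed signal, the authors' table and aorta alone, and 3 with muscle alone. D vs C gave 1 with muscle alone. E vs C gave 0 without slides 1, 3 and 11 and with aorta alone, 2 with the processed signal and the authors' table, and 3 with muscle alone, 2 of them after adjustment. F vs C gave 1 without slides 1, 3 and 11, with all 42 arrays, with the brightest probe, with scan day as a block and with aorta alone, 0 with the batch term, and 4 with muscle alone, 1 of them after adjustment. Over the 7 groups in muscle the count fell from 3 to 1 with slide as a random block.

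For the difference between tissues, A vs G gave 1 with all 42 arrays, the batch term, the authors' table and without the 3 aorta arrays, and 0 with the processed signal. C vs A gave 0 with all 42 arrays and with the batch term, and 1 with the processed signal and the authors' table. C vs G gave 0 with the processed signal and 2 without the 3 aorta arrays. D vs C gave 0 with all 42 arrays, the batch term and the processed signal. E vs C gave 1 with the brightest probe, the authors' table and an offset of 50. F vs C gave 0 with all 42 arrays and the batch term, and 2 without the 3 aorta arrays.

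Leaving out single arrays, the counts ran from 1 to 4 in A vs G, 0 to 2 in C vs A, 2 to 4 in C vs G, 0 to 1 in B vs C and 1 to 2 in huoxue mice, and from 0 to 1 in A vs G after adjustment. A vs G gave 4 without healthy aorta array 1 and 1 without diabetic aorta array 2 or 3, and C vs G gave 4 without healthy aorta array 1. For the difference between tissues they ran from 0 to 3 in A vs G, 1 to 3 in C vs A, 0 to 2 in C vs G, 0 to 1 in SHENQI, 0 to 3 in yangyinyiqi, 0 to 2 in huoxue and 1 to 2 in rosiglitazone mice. Signal over background limits Angpt1 in aorta.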
